A study of Mus musculus with 9 samples.

Results

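The Hox cluster genes described here were the rows of the count table whose name is Hox followed by a cluster letter, a to d, and a number. This took 36 of the 24186 genes in the table, with 11 members in cluster A on chromosome 6, 9 in cluster B on chromosome 11, 9 in cluster C on chromosome 15 and 7 in cluster D on chromosome 2 (GENCODE M21, build GRCm38). Hoxa3 had another identifier with 12 to 65 counts per library, and the identifier with more counts was kept. Hoxb1, Hoxd1 and Hoxd12 were not analysed here. Poly(A) RNA had been sequenced from bone marrow stromal cells that were flushed from femora and tibiae of adult C57Bl/6 mice with the transgene irtTA-GBD*-TAg. All groups carried this transgene, through which dexamethasone and doxycycline switch on large T antigen, and all had spent the last 3 days before RNA extraction in medium that lacked both drugs. Cells had been cloned by limiting dilution or by depositing single cells, but the labels do not say whether a library is 1 clone, nor whether libraries of a group come from separate animals. The 3 groups of 3 libraries were compared, each library numbered 4, 5 or 6 in its label: progenitors with adipogenic potential that received interferon-γ (IFNγ) at 10 ng/ml over 3 days, progenitors with osteogenic potential, and untreated progenitors with adipogenic potential. The p-values below therefore measure the spread between these libraries, which may be partly technical.

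Hox genes encode homeodomain transcription factors that give cells their position along the body axis and along the limbs. In each cluster the genes lie in the order in which they are used: low numbers near one end act early and towards the head, high numbers near the other end act late and towards the tail or the tip of a limb, and genes of one number in different clusters are paralogues. Polycomb complexes keep unused stretches of a cluster silent and Trithorax proteins keep used ones active, and connective tissue cells of adult mammals are known to keep a Hox pattern that fits the place they came from.

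Library totals ran from 27440089 to 39251602 counts, and Hox transcripts made up 349 to 435 CPM (counts per 1e6 counts) of the unscaled totals in the IFNγ-treated, 302 to 319 in the osteogenic and 342 to 418 in the untreated adipogenic libraries. All later CPM are scaled by TMM, the trimmed mean of M values. The floor, taken as 3 counts per library, lay between 0.0749 and 0.113 CPM and covers counting error only. Of the stromal markers, Col1a1, Col1a2, Pdgfrb and Prrx1 had at least 4002 counts in every library, whereas Thy1 had 0 or 1 count and Lepr 3 to 15. Ptprc, Pecam1, Cdh5 and Emcn, which define blood and endothelial cells, had 0 to 6 counts, and the fat cell genes Adipoq and Plin1 0 to 8. As whole lists, the blood cell markers summed to 11.9 to 19.1 CPM in IFNγ-treated, 8.49 to 10.6 in osteogenic and 10.7 to 28.2 in untreated adipogenic libraries. The adipocyte markers summed to 87.0 to 333, 37.1 to 77.9 and 74.9 to 646 CPM in the same order. The endothelial sums are given below. Sp7, a transcription factor of osteoblasts, had 4289, 3200 and 1793 counts in the osteogenic libraries and at most 11 in any adipogenic one, treated or not. Mitochondrial transcripts took 0.660 to 0.706% of counts in the IFNγ-treated, 0.945 to 1.06% in the osteogenic and 0.9296 to 1.38% in the untreated adipogenic libraries.

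All 4 clusters were transcribed in the adipogenic cultures, and cluster C held the most abundant members. To compare levels between genes, CPM were divided by the exonic length in kb that the table gives. The cluster C members Hoxc13, Hoxc10 and Hoxc6 led, and Hoxc13 had the highest mean of them in osteogenic and untreated adipogenic but not in IFNγ-treated libraries. Hoxc13 is a gene at the tail end of its cluster and known for its role in hair and nails. It stood at 11.6, 29.7 and 18.4 CPM per kb in IFNγ-treated replicates 4, 5 and 6, at 22.7, 26.0 and 34.7 in the osteogenic libraries and at 18.2, 41.2 and 22.7 in the untreated adipogenic libraries. The range of each group overlapped those of the others. Hoxc10, which takes part in hindlimb and lumbar patterning, averaged 22.7 ± 3.76 CPM per kb in IFNγ-treated, 24.6 ± 2.22 in osteogenic and 22.4 ± 4.04 in untreated adipogenic libraries (SD, n = 3 each). Hoxc6, a gene of thoracic level, averaged 19.3 ± 5.93, 22.2 ± 3.65 and 19.99 ± 5.96 CPM per kb in the same order of groups (SD, n = 3 each). These 3 leading members did not differ from each other beyond their spread in any group. Hoxc9 averaged 9.94 ± 2.74, 7.01 ± 0.0504 and 9.80 ± 0.188 CPM per kb in that order (SD, n = 3 each). The remaining cluster C genes had lower means, except Hoxc11 in osteogenic libraries at 7.39 ± 2.55 CPM per kb (SD, n = 3).

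In cluster A the member with the highest mean in each group was Hoxa10, a regulator of lumbar vertebrae, the limb skeleton and the uterus. It read 8.34, 6.14 and 3.65 CPM per kb in IFNγ-treated, 12.4, 10.7 and 10.7 in osteogenic and 8.87, 6.58 and 6.10 in untreated adipogenic replicates 4, 5 and 6. All 3 osteogenic libraries lay above all adipogenic ones, treated or not. In IFNγ-treated libraries the mean of Hoxa10, 6.04 ± 2.35 CPM per kb, did not differ from the 5.96 ± 2.70 of Hoxa7 beyond their spread (SD, n = 3 each). In single libraries of that group other members were higher, such as Hoxa7 at 8.78 in replicate 4. In cluster B the highest members were Hoxb9 in untreated and Hoxb6 in IFNγ-treated adipogenic libraries. Hoxb9, a gene of the rib cage level, read 8.43, 13.97 and 7.42 CPM per kb in IFNγ-treated, 3.00, 0.999 and 8.92 in osteogenic and 16.04, 17.1 and 6.50 in untreated adipogenic libraries. Osteogenic replicate 6 thus lay within the adipogenic range and the other osteogenic libraries below it. Cluster D was the weakest, led by Hoxd8 with 6.69, 1.34 and 2.95 CPM per kb in IFNγ-treated, 0.0661, 0.0548 and 0.0926 in osteogenic and 4.43, 0.975 and 2.63 in untreated adipogenic libraries. Hoxd10, Hoxd11 and Hoxd13, the tail-end genes of cluster D, did not pass the filter on low counts and had 0 to 14 counts in any library, with 0 counts in all 3 osteogenic libraries. The other 33 members passed.

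**Figure D1:**
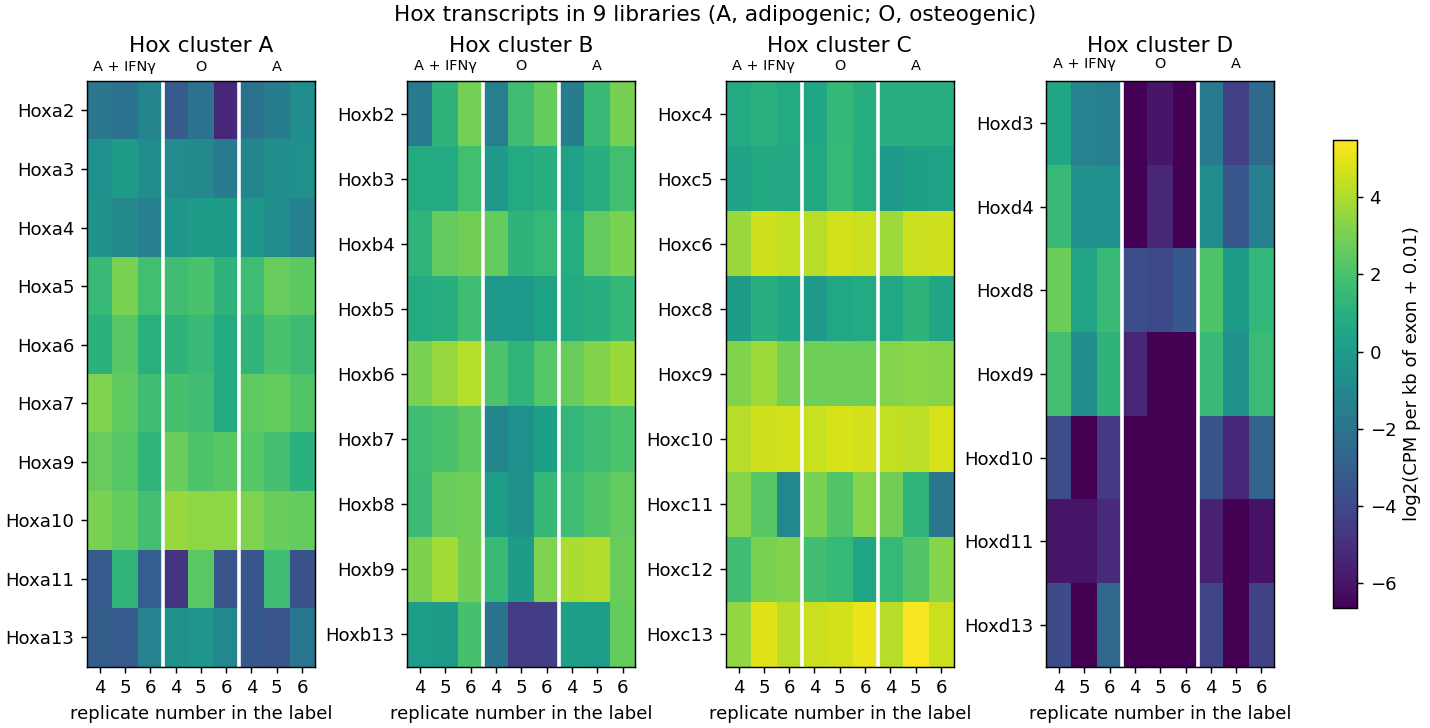
Level of the Hox genes shown (rows, by cluster and position) in each library (columns, numbered as in the labels), as log2 of CPM per kb of exon plus 0.01 on a colour scale. Cluster C genes Hoxc6, Hoxc10 and Hoxc13 are bright in all 9 libraries, and the whole of cluster D is dark in the 3 osteogenic libraries.

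Summed over members, Hox transcripts reached 173 ± 26.0 CPM per kb in IFNγ-treated, 148 ± 12.2 in osteogenic and 174 ± 23.3 in untreated adipogenic libraries (SD, n = 3 each). The clusters took different parts of this sum in the osteogenic cells. Cluster C held 47.4, 55.5 and 50.02% of it in IFNγ-treated, 63.0, 67.2 and 65.8% in osteogenic and 51.7, 56.1 and 52.7% in untreated adipogenic libraries. Cluster B held 20.9, 25.0 and 36.2%, 12.7, 9.06 and 18.6%, and 23.4, 25.6 and 31.1% in the same order of groups. Its osteogenic shares were all below every adipogenic share. Cluster D held the smallest part, at 10.2, 1.57 and 3.77% in IFNγ-treated, 0.0591, 0.0514 and 0.0577% in osteogenic and 5.73, 0.979 and 3.43% in untreated adipogenic libraries. The cluster C sum itself was 88.9 ± 20.4, 97.0 ± 10.2 and 93.5 ± 15.4 CPM per kb in that order (SD, n = 3 each), a difference within the spread between libraries. Genes at positions 9 to 13 together held 47.0 to 55.2% of the Hox sum in IFNγ-treated, 60.3 to 63.9% in osteogenic and 50.4 to 63.1% in untreated adipogenic libraries, so that the last of these groups overlapped both others. These sums were described and not tested.

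**Figure D2:**
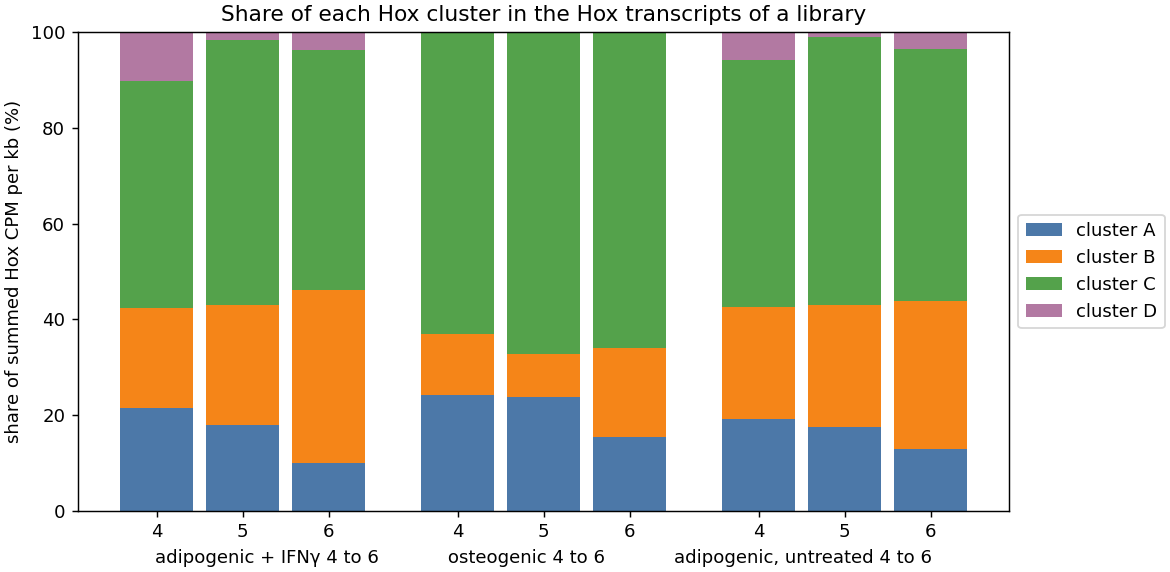
Share of the summed Hox CPM per kb (%) held by clusters A to D in each of the 9 libraries, with IFNγ-treated adipogenic libraries at the left, osteogenic ones in the middle and untreated adipogenic ones at the right. Cluster C takes 63.0 to 67.2% of the osteogenic bars, and cluster D, 0.979 to 10.2% of the adipogenic bars, is not visible in the osteogenic ones.

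Osteogenic against untreated adipogenic progenitors was the comparison of cells with different differentiation potential. The 4 testable cluster D genes, Hoxd3, Hoxd4, Hoxd8 and Hoxd9, fell to between 0 and 9 counts per library in osteogenic progenitors, and Hoxb7 fell as well. Hoxd3 and Hoxd4 passed the filter with all 9 libraries but not with only the 6 libraries compared here. Their place among the tested genes thus depended on the IFNγ-treated libraries. No Hox gene was called higher by edgeR. In the quasi-likelihood test of edgeR, with p-values adjusted after Benjamini and Hochberg over all 15098 genes tested, 5 of 33 Hox genes were called at 0.05 and all 5 were lower. Of all genes, 5.17% were called, 1.98% higher and 3.19% lower. The median log2 fold change was −0.48 over the Hox genes and −0.02 over all genes. In such bulk cultures, fewer cells that transcribe a gene and less RNA per cell cannot be told apart.

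The cluster D genes are shown by the bases before their start sites, since they moved together and lie side by side within one cluster. Each line gives 250 bases upstream of the transcription start from RefSeq, build GRCm38.p6, plus strand, 5′ to 3′, with CG pairs in capitals. The windows lie at chr2:74711743-74711992 for Hoxd3, chr2:74721728-74721977 for Hoxd4, chr2:74704365-74704614 for Hoxd8 and chr2:74697513-74697762 for Hoxd9.
Hoxd3: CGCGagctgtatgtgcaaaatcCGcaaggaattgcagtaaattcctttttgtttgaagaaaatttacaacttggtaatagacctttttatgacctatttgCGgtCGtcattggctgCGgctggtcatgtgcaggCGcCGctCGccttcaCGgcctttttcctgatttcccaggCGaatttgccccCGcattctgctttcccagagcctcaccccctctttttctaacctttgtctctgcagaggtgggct
Hoxd4: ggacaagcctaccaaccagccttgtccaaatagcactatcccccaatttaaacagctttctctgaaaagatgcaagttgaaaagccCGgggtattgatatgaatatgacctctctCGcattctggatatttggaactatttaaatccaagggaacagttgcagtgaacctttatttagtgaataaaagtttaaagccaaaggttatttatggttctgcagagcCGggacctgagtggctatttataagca
Hoxd8: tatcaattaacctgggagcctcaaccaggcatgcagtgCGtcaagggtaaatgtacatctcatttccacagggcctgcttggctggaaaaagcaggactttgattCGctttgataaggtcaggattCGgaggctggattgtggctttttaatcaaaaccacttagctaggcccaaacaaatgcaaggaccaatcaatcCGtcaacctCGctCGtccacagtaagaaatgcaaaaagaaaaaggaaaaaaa
Hoxd9: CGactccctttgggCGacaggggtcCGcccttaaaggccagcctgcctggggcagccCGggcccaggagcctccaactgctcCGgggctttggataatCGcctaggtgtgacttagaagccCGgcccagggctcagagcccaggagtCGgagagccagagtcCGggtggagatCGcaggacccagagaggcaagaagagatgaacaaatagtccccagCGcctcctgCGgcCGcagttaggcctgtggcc
These windows held 12, 3, 6 and 13 CG pairs in the order printed, against a median of 6 over 32851 mouse promoters of the same length and of 13 over 21 promoters of the 19 Hox members that RefSeq's table lists. Both CG-rich and CG-poor starts were thus among the genes that fell. Both strands were searched for TATAAA, the core of a TATA box, for TGATTNAT, a site of Hox proteins with a TALE cofactor, and for TTCNNNGAA, the core to which STAT factors bind. The Hoxd4 window held the first and the last of these, at places that do not overlap, and the other printed windows held none. TATAAA occurred in 12.4% and TTCNNNGAA in 7.02% of all promoters, and TGATTNAT in 2.83%, and such a match is a description of the letters.

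Hoxd9, which acts with its paralogues in limb and lumbar patterning, had 1, 0 and 0 counts in osteogenic replicates 4, 5 and 6 and 224, 54 and 258 counts in the untreated adipogenic ones. The groups did not overlap, and adipogenic replicate 5 was the lowest of its group. The log2 fold change was −8.40 ± 1.20 (SE; adjusted p = 0.0111), and the ratio of pooled counts per library size was 0.00217 (exact 95% bounds 5.49e-05 and 0.0122, for counting error alone). Hoxd8, a gene of the cluster's middle, had 6, 4 and 9 counts in osteogenic and 432, 94 and 289 in untreated adipogenic libraries, again without overlap. Its log2 fold change was −5.19 ± 0.82 (adjusted p = 0.0145), with a ratio of pooled counts of 0.0271 (0.0163 to 0.0427). Hoxd3, at the head end, had 0, 1 and 0 counts in osteogenic and 62, 8 and 40 in untreated adipogenic libraries, a log2 fold change of −6.11 ± 1.29 (adjusted p = 0.0376). Its neighbour Hoxd4 had 0, 1 and 0 counts and 53, 8 and 38 counts in those groups, a change of −5.96 ± 1.30 (adjusted p = 0.0408). GENCODE M21 lacks the Hoxd4 identifier counted here. Its Hoxd4 entry, under another identifier, shares 388 exonic bases with Hoxd3 on the same strand. Hoxd3 also shares 2225 exonic bases with Gm28230 on that strand. The counts of Hoxd3 and Hoxd4 were close to each other in every library, so their reads may not be independent and they may not be separate results. For both, as for Hoxd9, osteogenic libraries held a single count in all, so the fitted fold depends on the prior count, and the pooled ratios were 0.0106 (0.000266 to 0.0602) for Hoxd3 and 0.0118 (0.000295 to 0.0671) for Hoxd4.

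Every fit made without 1 of the 9 libraries kept all 4 cluster D genes lower, but not always past the threshold, and Hoxd3 and Hoxd4 were called without IFNγ-treated replicate 4 or untreated adipogenic replicate 5 and in no other of these fits. The adjusted p of Hoxd3 was 0.132, 0.105 and 0.129 without osteogenic replicates 4, 5 and 6, 0.0765 and 0.0880 without untreated adipogenic replicates 4 and 6, and 0.0515 and 0.0502 without IFNγ-treated replicates 5 and 6. That of Hoxd4 was 0.139, 0.109 and 0.137, then 0.0829 and 0.0965, then 0.0524 and 0.0534, for the same libraries in the same order. For Hoxd8 it was 0.0728, 0.0668 and 0.0626 without osteogenic replicates 4, 5 and 6, and for Hoxd9 0.0607 and 0.0526 without osteogenic replicates 4 and 6. Genes that flank cluster D were not called, and the 2 given here were named after their values were seen. Mtx2, a mitochondrial membrane protein gene, averaged 38.1 ± 1.503 CPM in osteogenic and 41.4 ± 6.13 CPM in untreated adipogenic libraries (SD, n = 3 each; adjusted p = 0.639), and Lnp, an endoplasmic reticulum gene, 30.7 ± 1.35 and 27.2 ± 5.35 CPM in those groups (adjusted p = 0.567).

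**Figure D3:**
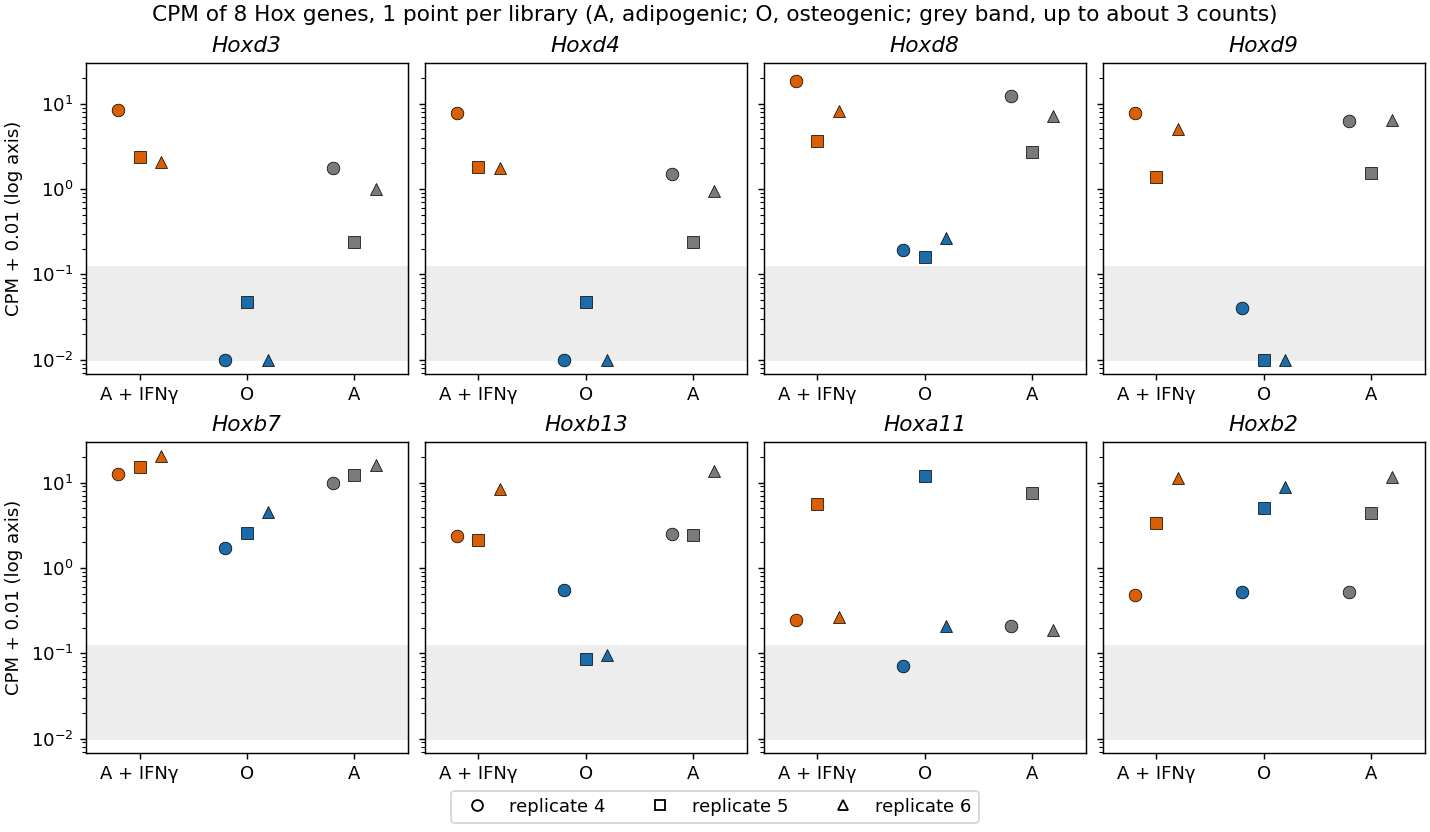
CPM plus 0.01 (log axis) of 8 Hox genes, 1 point per library, with circles, squares and triangles for replicates 4, 5 and 6 of the IFNγ-treated adipogenic, osteogenic and untreated adipogenic groups. The osteogenic points of Hoxd3, Hoxd4, Hoxd8 and Hoxd9 lie at 0 to 0.254 CPM, for each gene below all of its adipogenic points, and Hoxa11 stands high in the replicate 5 library of each group.

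In cluster B, Hoxb7 was the only gene of 9 that passed the edgeR test in osteogenic against untreated adipogenic progenitors, and 4 others lay lower without overlap between the groups. Hoxb7, a gene of thoracic level, had 1.69, 2.52 and 4.52 CPM in osteogenic replicates 4, 5 and 6 and 9.80, 12.3 and 15.8 CPM in the untreated adipogenic ones. The groups did not overlap, and the log2 fold change was −2.12 ± 0.38 (adjusted p = 0.0237). This call was lost without osteogenic replicate 4 (0.0728) or 5 (0.0905) and without untreated adipogenic replicate 6 (0.0734). Hoxb13, the tail-end gene of its cluster and known in prostate and spinal development, had 18, 2 and 3 counts in osteogenic and 89, 84 and 541 in untreated adipogenic libraries. Its groups did not overlap either, at a log2 fold change of −4.67 ± 1.14 with an adjusted p of 0.0551, and its ratio of pooled counts was 0.0375 (0.0236 to 0.0567). Hoxb5, Hoxb6 and Hoxb8 had log2 fold changes of −0.995 ± 0.33, −1.30 ± 0.38 and −1.62 ± 0.52 without overlap between the groups, and adjusted p-values of 0.127, 0.0912 and 0.116. DESeq2 called these 3 and Hoxb13 lower too, with adjusted p-values of 0.0443, 0.0124, 0.0173 and 4.21e-05. In all it called 2 Hox genes higher, where 5.88% of all genes were, and 9 lower, where 8.16% were (14% in either direction). Hoxb9 overlapped between the groups, at a log2 fold change of −1.61 ± 0.72 (adjusted p = 0.223). At the head end of the cluster, Hoxb2, Hoxb3 and Hoxb4 overlapped between the groups, with log2 fold changes of −0.21 to −0.53.

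Clusters A and C had no called member in this comparison by edgeR. Hoxa13, the most tail-ward gene of cluster A and a regulator of digits and of the urogenital tract, had 54, 53 and 43 counts in osteogenic and 8, 7 and 26 in untreated adipogenic libraries. The groups did not overlap, the log2 fold change was 2.15 ± 0.68 and the adjusted p was 0.110 by edgeR and 0.0279 by DESeq2. Hoxa13 did not pass the edgeR filter with the treated and untreated adipogenic libraries alone. Its place among the genes tested by edgeR thus depended on the osteogenic libraries, the group in which it was higher. Hoxc5 was the other gene that only DESeq2 called higher, at a log2 fold change of 0.85 ± 0.27 in edgeR (adjusted p = 0.115) and an adjusted p of 0.0345 in DESeq2. Hoxa10 averaged 40.7 ± 3.57 CPM in osteogenic and 26.0 ± 5.34 CPM in untreated adipogenic libraries without overlap (SD, n = 3 each; adjusted p = 0.219). With the number as a block, which pairs no osteogenic with an adipogenic library by design, 8.24% of all genes were called over 9 libraries (3.49% higher, 4.75% lower) and 0.158% over 6 (0.0618% higher, 0.0961% lower), and 9 and 0 Hox genes were called lower. Hoxa11, Hoxd3 and Hoxd4 were not tested in the block fit over 6 libraries. In all, 3 Hox genes lay higher without overlap (9.09%, against 15% of all genes tested) and 11 lay lower without overlap (33.3%, against 15.9%). The median log2 fold change was 0.57 over the 11 genes of cluster A, −1.30 over the 9 of cluster B, 0.08 over the 9 of cluster C and −6.03 over the 4 testable genes of cluster D.

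Markers of other cell types moved in the same comparison. Of 7 osteoblast markers, 4 were called higher, and the list summed to 637 to 2231 CPM in osteogenic and 276 to 1426 CPM in untreated adipogenic libraries. Of 10 stromal markers, Col1a1 and Col1a2 were called higher, and of 7 adipocyte markers 1 was called lower. The 4 cartilage markers, none of them called, summed to 227 to 287 CPM in osteogenic and 35.7 to 217 CPM in untreated adipogenic libraries. The 6 endothelial markers summed to 2.51 to 3.08 CPM in osteogenic and 11.7 to 19.995 CPM in untreated adipogenic libraries, with 1 gene called lower, and consisted mainly of Kdr, while Emcn was at 0 counts in all. The 4 smooth muscle markers, none of them called, summed to 6314 to 17107.5 CPM in osteogenic and 1998 to 4252 CPM in untreated adipogenic libraries, and the 10 most abundant genes took 10.7 to 13.3% and 5.31 to 6.23% of the counts in these groups. Their part in the Hox result was not tested.

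With IFNγ, no Hox gene passed the test in the fit with group alone, whereas Hoxd3 and Hoxd4 rose and Hoxc13 fell in the fit of the 6 libraries with the pairs as a block. In that block fit, smaller shares of the tested Hox genes than of all genes were called, both higher and lower. Hoxd3 and Hoxd4 at the head end of cluster D had the highest fold changes of the 33 tested in the fit with group alone. Both passed the filter on low counts only with the IFNγ-treated libraries included, the group in which they were higher. Their results with IFNγ are thus those of genes selected in part by that group. By edgeR 0 of 33 Hox genes were called in adipogenic progenitors given IFNγ against untreated ones, where 2.26% of all genes were called, 2.01% higher and 0.245% lower. DESeq2 called 0 as well, against 6.76% of all genes, 4.75% higher and 2.01% lower. At an unadjusted p under 0.05 there were 2 of 33, Hoxd3 and Hoxd4, where 14.3% of all genes reached it. The median log2 fold change was 0.02 over Hox genes and −0.02 over all genes, with 17 positive and 16 negative Hox values. Hoxd3 had 8.36, 2.34 and 2.07 CPM in IFNγ-treated replicates 4, 5 and 6 and 1.75, 0.228 and 0.998 CPM in the untreated replicates of the same number. Hoxd4 had 7.68, 1.805 and 1.76 CPM in IFNγ-treated and 1.49, 0.228 and 0.948 CPM in untreated adipogenic libraries. Every treated library thus lay above every untreated one for both genes, and no other tested Hox gene had groups that did not overlap (2 of 33 higher, 6.06%, against 10.2% of all genes; 0 lower, against 7.17%). The log2 fold changes of Hoxd3 and Hoxd4 were 2.10 ± 0.86 (adjusted p = 0.312) and 2.07 ± 0.87 (adjusted p = 0.326). These genes may share reads, as given above.

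Treated and untreated adipogenic libraries of one number deviated together across genes, and a fit that takes the number as a block changed some of these calls. With the block over the 6 libraries compared, Hoxd3 rose by a log2 fold change of 2.07 ± 0.42 (adjusted p = 0.0320) and Hoxd4 by 1.97 ± 0.41 (0.0347), where 16.6% of all genes were called and 8.61% were called higher. Hoxc13 fell by 0.49 ± 0.10 on the log2 scale (0.0330), where 8.02% of all genes were called lower. Hoxa11 and Hoxa13 were not tested in that fit. Hoxd3 and Hoxd4 were tested there through the IFNγ-treated libraries, the group in which they were higher. Hoxc13 averaged 48.5 ± 22.1 CPM in IFNγ-treated and 66.7 ± 29.7 CPM in untreated adipogenic libraries (SD, n = 3 each) and was lower in 3 of 3 pairs. With the block for the adipogenic libraries in a fit of all 9, an alternative chosen after seeing the data, Hoxd3 was still called (2.14 ± 0.52; adjusted p = 0.0471), Hoxd4 was not (0.0528) and nor was any other Hox gene, where 10.8% of all genes were called, 6.53% higher and 4.27% lower. With the block for all 9 libraries neither was called (0.154 for Hoxd3 and 0.172 for Hoxd4), where 3.14% of all genes were, 2.56% higher and 0.576% lower. Counted by pairs, 10 of 33 Hox genes were higher in 3 of 3 (30.3%, against 26.9% of all genes) and 7 were lower in 3 of 3 (21.2%, against 29.7%). Their neighbours Hoxd8 and Hoxd9 passed in neither fit, with adjusted p-values of 0.126 and 0.779 with the block over 6 libraries, although Hoxd8 was higher in 3 of 3 pairs. Hoxd8 had 18.4, 3.67 and 8.09 CPM in IFNγ-treated and 12.2, 2.68 and 7.21 CPM in untreated adipogenic libraries, and Hoxd9 had 7.66, 1.38 and 4.97 CPM and 6.31, 1.54 and 6.44 CPM in those groups. Both overlapped between the groups, with log2 fold changes of 0.45 ± 0.65 (adjusted p = 0.836) and −0.03 ± 0.73 (adjusted p = 0.993).

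No gene of the 7 marker lists was called with IFNγ, but the summed levels of 3 lists did not overlap between the groups. The 6 endothelial markers summed to 24.3 to 61.3 CPM in IFNγ-treated and 11.7 to 19.995 CPM in untreated adipogenic libraries, with Emcn at 0 counts in all. The 4 smooth muscle markers summed to 918 to 1471 CPM and 1998 to 4252 CPM in those groups, and the 10 stromal markers to 6858 to 7772 CPM and 12919.5 to 21872 CPM. Their part in the Hoxd3, Hoxd4 and Hoxc13 results was not tested.

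**Figure D4:**
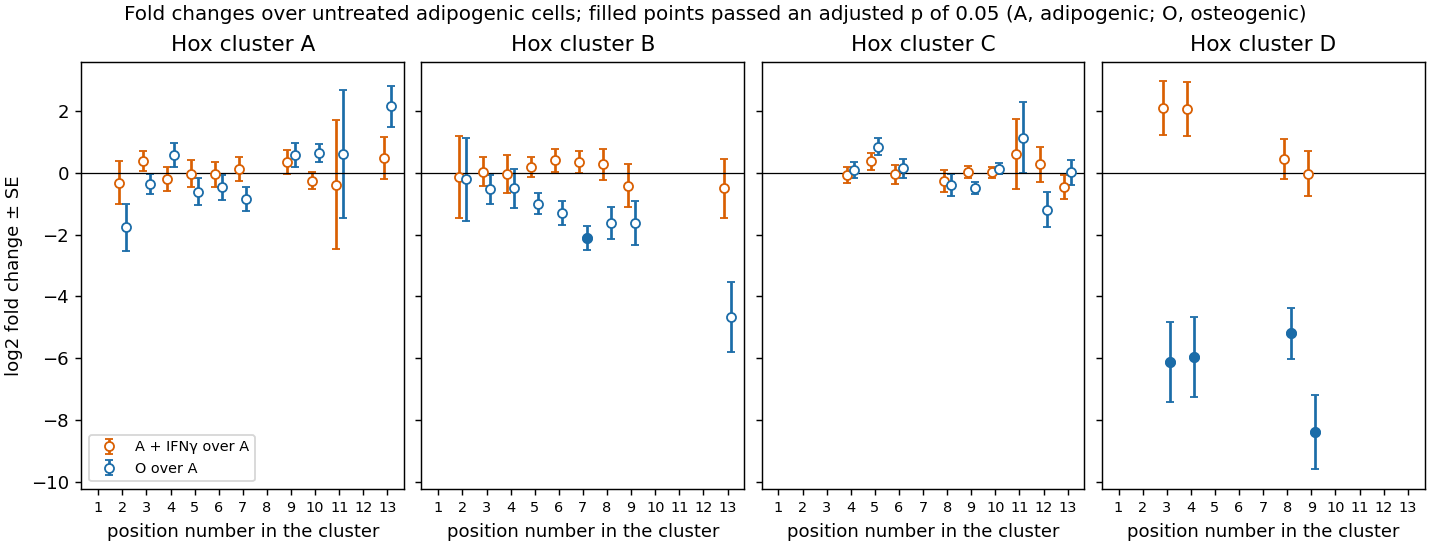
Log2 fold change with its SE (edgeR) of tested Hox genes by position number in clusters A to D, for IFNγ-treated over untreated adipogenic libraries (orange) and osteogenic over untreated adipogenic libraries (blue), which share the untreated libraries. Filled points passed an adjusted p of 0.05 in the fit with group alone, which leaves out the pairs, namely Hoxb7 at −2.12 and the 4 cluster D genes at −8.40 to −5.19, all of them blue.

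IFNγ-treated adipogenic against osteogenic progenitors gave 9 Hox calls by edgeR, all of them higher in the IFNγ-treated cells. They were Hoxb5, Hoxb6, Hoxb7, Hoxb8 and Hoxb13 of cluster B and Hoxd3, Hoxd4, Hoxd8 and Hoxd9 of cluster D. By edgeR, 9 of 33 Hox genes were called higher and 0 lower, where 16.7% of all genes were called, 9.2% higher and 7.52% lower. At an unadjusted p under 0.05 there were 16 of 33 Hox genes in either direction, where 32% of all genes reached it. DESeq2 called 9 higher and 1 lower, Hoxa10, where it called 22.8% of all genes, 12.4% higher and 10.4% lower. Markers of other cell types were called in this comparison as well: 6 of 7 osteoblast, 3 of 4 smooth muscle and 2 of 10 stromal markers lower, and 2 of 6 endothelial and 1 of 7 adipocyte markers higher. Their part in the Hox result was not tested. This comparison shares the osteogenic libraries with the one above. Hoxd3 and Hoxd4 were tested in it through the IFNγ-treated libraries, the group in which they were higher. Hoxd9 had 259, 49 and 175 counts in IFNγ-treated and 1, 0 and 0 in osteogenic replicates 4, 5 and 6, with a log2 fold change of 8.37 ± 1.20 (adjusted p = 0.00327). Hoxd8 had 621, 130 and 285 counts and 6, 4 and 9 counts in those groups, a change of 5.64 ± 0.83 (adjusted p = 0.00373). No library of either group came near the range of the other for these genes. Hoxd3 had 283, 83 and 73 counts in IFNγ-treated and 0, 1 and 0 in osteogenic libraries (log2 fold change 8.21 ± 1.31; adjusted p = 0.00530), and Hoxd4 had 260, 64 and 62 and 0, 1 and 0 (8.03 ± 1.32; adjusted p = 0.00591). The ratios of pooled counts were 439 (exact 95% interval 78.5 to 17392) for Hoxd9, 49.6 (31.6 to 82.7) for Hoxd8, 399 (71.3 to 15810) for Hoxd3 and 351 (62.7 to 13906) for Hoxd4. These 4 genes and Hoxb7 stayed past the threshold in all 9 fits that leave out 1 library, with adjusted p-values of at most 0.0304.

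Hoxb7 had 12.7, 15.4 and 20.4 CPM in IFNγ-treated and 1.69, 2.52 and 4.52 CPM in osteogenic libraries, a log2 fold change of 2.47 ± 0.39 (adjusted p = 0.00498). Hoxb6 had 11.9, 17.3 and 24.7 CPM and 6.01, 3.499 and 6.86 CPM in those groups, a change of 1.72 ± 0.38 (adjusted p = 0.0205). Hoxb13 had 80, 75 and 299 counts in IFNγ-treated and 18, 2 and 3 in osteogenic libraries, a change of 4.17 ± 1.12 (adjusted p = 0.0385) and a pooled ratio of 18.0 (11.8 to 28.6). None of these overlapped between the groups. Hoxb8 averaged 14.7 ± 5.56 CPM in IFNγ-treated and 3.96 ± 2.74 CPM in osteogenic libraries (SD, n = 3 each; 1.89 ± 0.52 on the log2 scale; adjusted p = 0.0426). Hoxb5 averaged 4.56 ± 1.71 and 2.00 ± 0.376 CPM in those groups (1.19 ± 0.34; adjusted p = 0.0448). The calls of these 4 were lost in some fits that leave out a library. Hoxb6 had an adjusted p of 0.0660 without IFNγ-treated replicate 6 and of 0.0628 and 0.0680 without osteogenic replicates 4 and 5. Hoxb13 had 0.0519 and 0.106 without IFNγ-treated replicates 4 and 6 and 0.123 and 0.120 without osteogenic replicates 5 and 6. Hoxb8 had 0.0936 and 0.115 without IFNγ-treated replicates 5 and 6, 0.139 and 0.118 without osteogenic replicates 4 and 5, and 0.0515, 0.0595 and 0.0561 without untreated adipogenic replicates 4, 5 and 6. Hoxb5 had 0.0667 and 0.135 without IFNγ-treated replicates 5 and 6, 0.137, 0.135 and 0.0754 without osteogenic replicates 4, 5 and 6, and 0.0520, 0.0614 and 0.0511 without untreated adipogenic replicates 4, 5 and 6. With the block, 21.6% of all genes were called over 9 libraries (11.3% higher, 10.3% lower) and 8.63% over 6 (4.84% higher, 3.79% lower), and 5 Hox genes were called higher over 6. In all, 12 Hox genes lay higher without overlap (36.4%, against 19.7% of all genes tested) and 5 lay lower without overlap (15.2%, against 18.8%), with Hoxa10 and Hoxa13 among the lower ones. Hoxa13, as given above, was among the tested genes through the osteogenic libraries.

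Hoxb2 was the only one of 33 Hox genes that passed a test of the number in the label, and Hoxa11 differed by number without passing it. Hoxa11, known for the forearm and lower leg and for the uterus, had 8, 199 and 9 counts in IFNγ-treated replicates 4, 5 and 6, 2, 316 and 7 in the osteogenic ones and 7, 267 and 7 in the untreated adipogenic ones. The library numbered 5 was high in each group and the others were near the floor. The transcript from its opposite strand, named Hoxa11as in the table, had 0, 133 and 2, then 1, 153 and 4, then 0, 128 and 1 counts in the same order. The 2 genes share 800 exonic bases on opposite strands in GENCODE M21, and with the strand setting of the counting not given, their reads cannot be told apart. Hoxb2, a head-end gene that acts in the hindbrain, had 16, 120 and 397 counts in IFNγ-treated, 17, 133 and 314 in osteogenic and 18, 154 and 470 in untreated adipogenic libraries. In each group number 4 was lowest and number 6 highest. Hoxb2 shares 953 exonic bases with the opposite-strand gene Hoxb3os, which had 37 to 144 counts per library. Hoxb3 shares 2250 exonic bases with Hoxb3os, also on opposite strands. In an F test of the number in the edgeR fit with group and number, chosen after seeing the data, 4 of 15098 genes passed an adjusted p of 0.05 (0.0265%), and Hoxb2 (adjusted p = 0.0246) and Hoxa11as (0.0246) were among them. Hoxa11 had an adjusted p of 0.0753. An unadjusted p under 0.05 in this F test was reached by 15 of 33 Hox genes (45.5%), against 16.7% of all genes. The F test counts the treated and untreated adipogenic libraries of one number as independent. Their deviations over all tested genes correlated at 0.778, 0.769 and 0.779 for numbers 4, 5 and 6. The p-values of the F test, and both of these shares, rest on that assumption, and a trait of Hox genes was not tested. In 4 of 33 Hox genes (12.1%, against 8.28% of all genes) the 3 libraries of one number lay all above or all below the other 6, namely Hoxa11, Hoxb2, Hoxb3 and Hoxc6. The labels do not say what the numbers denote, and osteogenic and adipogenic libraries of one number did not deviate together across all genes, so this is a hint from the data and not from the design.

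Hoxc11, chosen after its values were seen and not called in the test of the number (adjusted p = 0.4004 by edgeR), is a gene of the hindlimb and tail level. It had 20.04, 10.2 and 0.994 CPM in IFNγ-treated and 14.8, 4.95 and 0.549 CPM in untreated adipogenic replicates 4, 5 and 6, while the osteogenic libraries had 16.9, 9.10 and 18.8 CPM. Replicate 6 was thus the lowest adipogenic library with or without IFNγ and the highest osteogenic one. Over the 33 tested members, log2(CPM + 0.1) of treated and untreated libraries of one number correlated across genes at 0.942, 0.933 and 0.977 (Pearson), pairs of different numbers within the IFNγ-treated group at 0.676 to 0.757, within the osteogenic group at 0.8501 to 0.923 and within the untreated adipogenic group at 0.717 to 0.757. These values describe 33 genes that are not independent of each other.

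Calls among cofactors of Hox proteins and regulators of the clusters are set beside the shares of all genes and were not tested against them. Of all genes, 2.26% were called with IFNγ, 5.17% in osteogenic against untreated adipogenic and 16.7% in IFNγ-treated against osteogenic progenitors. None of the 11 TALE homeodomain cofactors tested was called with IFNγ or between osteogenic and untreated adipogenic progenitors. Meis1 averaged 11.1 ± 1.59 CPM in IFNγ-treated, 10.3 ± 2.54 in osteogenic and 13.3 ± 3.19 in untreated adipogenic libraries (SD, n = 3 each). Meis3 was the only one called in IFNγ-treated against osteogenic progenitors, lower at −0.72 ± 0.16 on the log2 scale (adjusted p = 0.0179). Meis2 averaged 44.3 ± 15.5, 35.1 ± 16.2 and 48.5 ± 22.0 CPM in IFNγ-treated, osteogenic and untreated adipogenic libraries (SD, n = 3 each). Of 30 Polycomb genes, 0 were called with IFNγ and 1 in osteogenic against untreated adipogenic progenitors, Cbx2, a subunit that reads the silencing mark, which was higher at 0.77 ± 0.17 (adjusted p = 0.0402). Ezh2, the methyltransferase that writes that mark, averaged 60.0 ± 14.02 CPM in IFNγ-treated, 53.4 ± 4.84 in osteogenic and 41.6 ± 4.71 in untreated adipogenic libraries (SD, n = 3 each; adjusted p = 0.237 and 0.288 for the first and the second group against untreated). In IFNγ-treated against osteogenic progenitors, Pcgf5 (1.63 ± 0.28) and Suz12 (0.77 ± 0.16) were higher and Ring1 (−0.79 ± 0.15), Cbx8 (−0.90 ± 0.18) and Cbx2 (−0.62 ± 0.17) lower on the log2 scale, with adjusted p-values of 0.00741 to 0.0385. Kdm6b, which removes the mark, was 1 of 18 Trithorax and demethylase genes called in osteogenic against untreated adipogenic progenitors, at 150 ± 8.11 CPM and 98.8 ± 11.9 CPM (SD, n = 3 each; log2 fold change 0.60 ± 0.13; adjusted p = 0.0353). It was lower in IFNγ-treated than in osteogenic libraries (−1.0004 ± 0.13; adjusted p = 0.00189), where Setd1a was higher (0.64 ± 0.14; adjusted p = 0.0192).

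Retinoic acid, which sets Hox expression in embryos, is broken down by Cyp26 enzymes. Cyp26b1 averaged 15.9 ± 5.24 CPM in IFNγ-treated, 33.2 ± 4.36 CPM in osteogenic and 4.45 ± 0.740 CPM in untreated adipogenic libraries (SD, n = 3 each). It was the only one of 17 tested retinoic acid genes called with IFNγ (log2 fold change 1.84 ± 0.27; adjusted p = 0.00939), and it was called higher in osteogenic against untreated adipogenic progenitors too (2.90 ± 0.28; adjusted p = 0.00213). In the same osteogenic comparison, Aldh1a3, which makes retinoic acid, was higher at 2.67 ± 0.52 (adjusted p = 0.0292). Cyp26c1, whose mean of 0.978 CPM in untreated adipogenic libraries is under the 1 CPM set for naming, fell and is named after its values were seen: it had 2, 5 and 7 counts in osteogenic and 38, 33 and 37 in untreated adipogenic libraries (adjusted p = 0.0143). In IFNγ-treated against osteogenic progenitors, where 9.2% of all genes were called higher and 7.52% lower, 4 of 17 retinoic acid genes were higher, with Cyp26c1 (4.28 ± 0.44) and Cyp26a1 (2.47 ± 0.57) among them, and 4 lower, with Aldh1a3 (−3.55 ± 0.55) and Rara (−0.52 ± 0.11) among them, at adjusted p-values of 0.000645 to 0.0374. Of 11 tested genes next to the Hox clusters, 1 was called with IFNγ, Snx10, a sorting nexin gene beside cluster A, which averaged 126 ± 12.8 CPM in IFNγ-treated, 32.8 ± 4.72 in osteogenic and 33.2 ± 7.89 in untreated adipogenic libraries (SD, n = 3 each; log2 fold change over untreated 1.92 ± 0.20; adjusted p = 0.00174). Evx1, at the tail end of cluster A, had 2 counts in osteogenic replicate 4 and 0 in every other library. Evx2, Hotair and Hottip were not analysed here.

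Among 27 tested transcription factors of limb and position, 0 were called with IFNγ, where 2.26% of all genes were. In osteogenic against untreated adipogenic progenitors 4 were higher and 1 lower, where 1.98% and 3.19% of all genes were. Prrx2, a factor of limb mesenchyme, averaged 179 ± 12.8 CPM in osteogenic and 21.5 ± 7.75 CPM in untreated adipogenic libraries (SD, n = 3 each; log2 fold change 3.06 ± 0.52; adjusted p = 0.0198). Dlx5, a factor of bone formation and limb outgrowth, averaged 36.2 ± 8.82 and 3.23 ± 0.505 CPM in those groups (3.49 ± 0.51; adjusted p = 0.0123). Lhx2, named after its values were seen, was higher at 1.805 ± 0.41 (adjusted p = 0.0435), and Twist2 was lower at −1.84 ± 0.40 (0.0402). Pitx1, which sets hindlimb identity together with Tbx4, had 2271, 1 and 3 counts in IFNγ-treated, 1904, 587 and 2071 in osteogenic and 2021, 6 and 3 in untreated adipogenic replicates 4, 5 and 6. Adipogenic replicate 4, treated or not, and all osteogenic libraries thus read Pitx1, and adipogenic replicates 5 and 6 hardly did. Tbx4 had 0 to 2 counts in any library, and Tbx5, the forelimb counterpart, had 21 counts in osteogenic replicate 5 and 0 or 1 elsewhere. Shox2, a limb factor, averaged 59.8 ± 19.4 CPM in IFNγ-treated, 102.9 ± 20.7 in osteogenic and 61.1 ± 15.1 in untreated adipogenic libraries (SD, n = 3 each) and was not called. In IFNγ-treated against osteogenic progenitors, where 9.2% of all genes were called higher and 7.52% lower, 1 of these factors was higher and 6 were lower, led by Dlx5 (−4.94 ± 0.55; adjusted p = 0.00105) and Prrx2 (−4.28 ± 0.56; adjusted p = 0.00218).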

How the data were processed

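The table the authors deposited holds raw read counts, 1 column per library and 1 row per Ensembl identifier, beside each gene's exonic length. Per the labels' protocols, libraries of poly(A) RNA came from a directional kit and were pooled and sequenced as single reads of 75 bases over all lanes used. Per the submitters' processing notes, the build was mm9 and the tools included bedtools 2.11 and CASAVA 1.8.0. Aligner, counter and strand setting: not given in the sources used here.

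Groups were read from the letters of the titles and the series' design. The analysis ran edgeR 4.0.16 under R 4.3.3: filterByExpr by group left 15098 genes, libraries were scaled by TMM, and a robust quasi-likelihood model with a term for group was fitted to all 9 libraries. F tests, two-sided, gave the 3 comparisons, with Benjamini-Hochberg adjustment over all tested genes and a threshold of 0.05. Each SE is the absolute log2 fold change over the square root of F. CPM use the scaled library sizes, and CPM per kb divide them by the exonic length. Pooled count ratios carry exact binomial 95% intervals. With 3 libraries a group, the smallest two-sided p of an exact permutation test is 0.1. No pair of libraries within a group agreed within sampling noise.

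The numbers 4, 5 and 6 were examined for pairing first. Over 15098 genes, the deviations of libraries from their group's mean correlated at 0.778, 0.769 and 0.779 for adipogenic libraries with one number, treated with untreated, which were therefore taken as pairs in the fits with a block, while the main model has the group term alone. For osteogenic with untreated adipogenic libraries they correlated at −0.027, −0.055 and −0.054, which were not. The main model treats all 9 libraries as independent, although adipogenic libraries of one number, treated and untreated, deviated together. Its p-values, also those of the comparisons with osteogenic libraries, rest on that assumption.

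Alternatives were no filter, RLE and upper-quartile scaling, DESeq2 1.42.0, only the 6 libraries compared, a replicate block and leaving out each library. All 36 members entered the counts and sums, a few genes are not reported here by name or in the plots of single genes, and the others may be named, with full statistics for those past 0.05 in at least 1 comparison and values in every library for these and for the top member of each cluster. From the lists of cofactors, Polycomb, Trithorax, limb, retinoic acid and neighbouring genes and RNAs without a protein, a fixed set was otherwise always named where the table holds them, with up to 4 more per list and comparison past 0.05 and with at least 1 CPM in the higher group. Members and lists were chosen with earlier results of these data known. Exon overlaps and chromosomes come from GENCODE M21 (GRCm38) and promoter sequences from RefSeq, matched by symbol for 19 of 36 members. No coordinate of one build was converted to another.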

Additional observations from a re-analysis of the deposited data

How the results depend on the processing

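No called Hox gene changed direction under any alternative run. All counts are of genes past an adjusted p of 0.05. For IFNγ against untreated, 341 genes became 1043 with DESeq2, 178 in a fit of just these 6 libraries, 2446 once that fit had a replicate block (Hox genes 2 higher and 1 lower) and 1631 with the block of the adipogenic libraries in all 9 (1 higher). Leaving out 1 library gave 194 to 278 genes and 0 Hox genes. For osteogenic against untreated adipogenic, 780 became 2167 with DESeq2, 1244 with the replicate block over 9 libraries and 23 with the block over 6. The Hox count of 5 lower became 9 lower and 2 higher with DESeq2, 3 with only the 6 libraries, where Hoxd3 and Hoxd4 were not tested, 9 with the block over 9 and 0 with the block over 6. Hoxd3 and Hoxd4 were not tested with the block over 6 either. Leaving out 1 library gave 159 to 771 genes and 0 to 5 Hox genes lower. For IFNγ-treated against osteogenic, 2525 became 3822 with DESeq2 and 1257 with the replicate block over 6 libraries, which left 5 Hox genes higher of 9; DESeq2 called 1 and the block over 9 called 2 lower. Leaving out 1 library gave 1312 to 2474 genes, 5 to 8 Hox genes higher and 0 to 1 lower. Same-numbered osteogenic and adipogenic libraries share only a number, so the block there is no design of the study. The cause of these differences was not tested. The smaller fits had fewer libraries and also their own filter and estimate of spread. Summed levels of each cluster moved by less than the spread between libraries with CPM not divided by length, library totals or RLE; the log2 ratio of cluster C, osteogenic over untreated adipogenic, was 0.05 and became −0.06 with library totals, so it has no direction. Depth limits Hoxd10, Hoxd11 and Hoxd13, which lie near the floor in every group.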
